A study of Nannospalax ehrenbergi and Mus musculus with 14 samples.

Results

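The 6 microRNAs described here are the mature 3p products of the miR-148/miR-152 family (miR-148a-3p, miR-148b-3p and miR-152-3p) and of the miR-130/miR-301 family (miR-130a-3p, miR-130b-3p and miR-301a-3p). They were chosen by name and are 6 of the 1326 microRNA names in each deposited table, with reads in all 14 libraries. Small RNA was sequenced from animals that had received 3-methylcholanthrene (3MCA), a chemical carcinogen, once under the skin of the neck. For each animal there was a library of the injected side (IS), where a lesion had grown, and one of the opposite neck muscle, which was not injected (UIS). All animals analysed here were treated, so the UIS is not untreated tissue. Wild-caught *Spalax*, the blind mole rat, received 1 mg in 500 µl, and C57BL/6 mice received 200 µg in 200 µl.

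The *Spalax* named spalax_600 and spalax_976 bore benign granulomas and were operated on 14 and 16 months after the injection. The *Spalax* spalax_2240 and spalax_2230 bore malignant fibrosarcomas and were operated on after 18 and 30 months. The mice mouse_512, mouse_1023 and mouse_1019 bore fibrosarcomas, were operated on after 11, 12 and 14 weeks, and were 3 to 4 months old. The series gives 2 age classes of *Spalax* and does not tie them to these animals. The mice were male, as was spalax_2230, and the other *Spalax* were female. One mouse UIS library carries an animal number in the deposited table that differs from its label and was used without a pair. With 2 animals in each *Spalax* condition, p-values rest on a spread shared across all *Spalax* libraries.

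A microRNA pairs with messenger RNAs mainly through a short seed near its 5′ end and lowers their translation or stability, and microRNAs with the same seed form a family with overlapping targets. The miR-148/miR-152 family is known for repressing the DNA methyltransferase DNMT1, and miR-148a is also known from muscle cell differentiation. The miR-130/miR-301 family is known for repressing PPARγ and has been studied in fibrosis, in angiogenesis (miR-130a) and in NF-κB signalling (miR-301a).

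The mouse hairpins of the members are shown because they make the family relation visible and because the mouse names were used for both species. They are GENCODE M21 transcripts on GRCm38, written 5′ to 3′ as DNA, and the capitals mark the longest run that the 3 hairpins of a family share.
Mir148a: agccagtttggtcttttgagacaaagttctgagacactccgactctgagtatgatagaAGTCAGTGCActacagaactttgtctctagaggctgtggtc
Mir148b: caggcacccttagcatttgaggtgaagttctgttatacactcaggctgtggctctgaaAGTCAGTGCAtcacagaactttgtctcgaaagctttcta
Mir152: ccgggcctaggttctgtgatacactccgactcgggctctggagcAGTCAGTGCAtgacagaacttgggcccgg
Mir130a: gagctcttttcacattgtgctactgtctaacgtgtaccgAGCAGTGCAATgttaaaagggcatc
Mir130b: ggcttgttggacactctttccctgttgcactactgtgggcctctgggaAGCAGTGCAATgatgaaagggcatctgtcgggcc
Mir301: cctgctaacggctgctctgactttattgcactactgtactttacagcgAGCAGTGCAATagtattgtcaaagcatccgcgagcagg

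In each of the 6 hairpins the shared run occurred once, towards the 3′ end. The run AGTCAGTGCA of the miR-148/miR-152 family was found in 3 of the 2201 mouse microRNA hairpins (0.136%), all of them family members. The run AGCAGTGCAAT of the miR-130/miR-301 family was found in 5 hairpins (0.227%), namely those of the 3 members, Mir301b and Mir6389. The 7 letters CAGTGCA lie inside both runs and occurred in 30 hairpins (1.36%), with only the transcribed strand searched. The ends of the mature microRNAs were not annotated in the reference used here, so the capitals are not a seed.

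The hairpins lie at 6 separate mouse loci. Mir148a, at chr6:51269812-51269910 on the minus strand, and Mir130a, at chr2:84741115-84741178 on the minus strand, overlapped no other annotated gene. Mir148b, at chr15:103285125-103285221 on the plus strand, lies in an intron of Copz1, and Mir152, at chr11:96850393-96850465 on the plus strand, lies in an intron of Copz2. Copz1 and Copz2 encode related coatomer subunits. Mir301, at chr11:87113004-87113089 on the plus strand, lies in an intron of Ska2, which encodes a kinetochore protein. Mir130b, at chr16:17124061-17124142 on the minus strand, lies in an intron of 2610318N02Rik, 257 bases from Mir301b. Each host gene is on the same strand as its hairpin.

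The values below are normalised read counts, that is, reads divided by a size factor of each library. The libraries held 2034574 to 13982842 microRNA reads, and no member had fewer than 57 reads in a library. All libraries are labelled as muscle, but the sides differed in tissue make-up: 7 muscle microRNA names (among them miR-1a, miR-133a and miR-206) took 27.7% to 37.3% of the reads in the 7 UIS libraries and 0.00959% to 3.94% in the 7 IS libraries. Fibroblast-associated microRNAs (miR-199 and miR-214, 4 names) took 0.426% to 1.87% at the UIS and 5.35% to 20.2% at the IS, and white cell microRNAs (miR-223 and miR-142, 3 names) took 0.0238% to 0.0567% and 0.314% to 2.25%. Endothelial microRNAs (miR-126, 2 names) took 0.323% to 1.10% at the UIS and 0.343% to 1.64% at the IS, and red cell microRNAs (miR-451a, miR-144 and miR-486, 5 names) took 2.71% to 35.5% and 0.379% to 6.41%. The names of a list were summed as deposited, so reads given to 2 names would count under both. In such bulk tissue, fewer cells of a type and less of a microRNA per cell cannot be told apart, and the part of tissue make-up in the differences below was not tested.

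Every member was higher at both granuloma IS libraries than at both UIS libraries of the same animals, as were 41.4% of all microRNAs tested. In granuloma, 4 of the 6 members rose past the threshold, an adjusted p under 0.05 in limma: miR-148a-3p and miR-148b-3p of the first family, and miR-130a-3p and miR-301a-3p of the second. DESeq2 called all 6, and it called 238 of all 447 microRNAs tested in *Spalax*, 133 of them higher at the IS. In limma, 48.3% of the 447 passed in granuloma in either direction and 25.5% passed as higher at the IS. The median log2 change was 1.505 over the 6 members and 0.13 over all microRNAs tested.

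miR-148a-3p, the most abundant member, was counted at 17393 and 14429 at the UIS of spalax_600 and spalax_976 and at 95659 and 53497 at the IS. This was a log2 change of 2.17 ± 0.37 (SE, n = 2 against 2; limma, adjusted p = 0.00297), or 4.52-fold, and the larger rise was in spalax_600. Its paralog miR-148b-3p went from 3228 and 2709 to 9229 and 6491 (log2 change 1.39 ± 0.37, limma adjusted p = 0.0185). The groups did not overlap for either paralog. miR-152-3p went from 143 and 128 to 393 and 206, a log2 change of 1.07 with a 95% interval of -0.04 to 2.17 (limma, adjusted p = 0.0999). The IS libraries of miR-152-3p were both above the UIS libraries, but the change did not pass in limma (DESeq2 adjusted p = 0.0484).

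In the miR-130/miR-301 family, miR-130a-3p went from 1253 and 901 at the granuloma UIS to 5142 and 5642 at the IS, a log2 change of 2.34 ± 0.57 (limma, adjusted p = 0.0130). Both IS values of miR-130a-3p lay close together. miR-301a-3p went from 214 and 165 to 804 and 419 (log2 change 1.62 ± 0.48, limma adjusted p = 0.0257). miR-130b-3p, the least abundant member of its family, went from 80.8 and 91.5 to 263 and 182, a log2 change of 1.34 with an interval of 0.13 to 2.55 (limma, adjusted p = 0.0651), and did not pass in limma. It passed in edgeR with TMM factors (adjusted p = 0.0463) and in DESeq2 (adjusted p = 0.0229).

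Muscle microRNAs made up 35.3% to 37.3% of the granuloma UIS libraries and 0.00959% to 0.165% of the IS libraries, and fibroblast-associated microRNAs 0.735% to 0.983% and 19.0% to 20.2%. Of the 4 calls, 2 were left without the IS library of spalax_600 or without its UIS library, and 1, miR-148a-3p, without the UIS library of spalax_976. With the animal as a block, limma called 4 members and edgeR 2, the rises of miR-148b-3p (adjusted p = 0.0566) and miR-301a-3p (adjusted p = 0.0580) being lost. In limma on the granuloma libraries alone, the call of miR-301a-3p was lost (adjusted p = 0.0540).

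**Figure D1:**
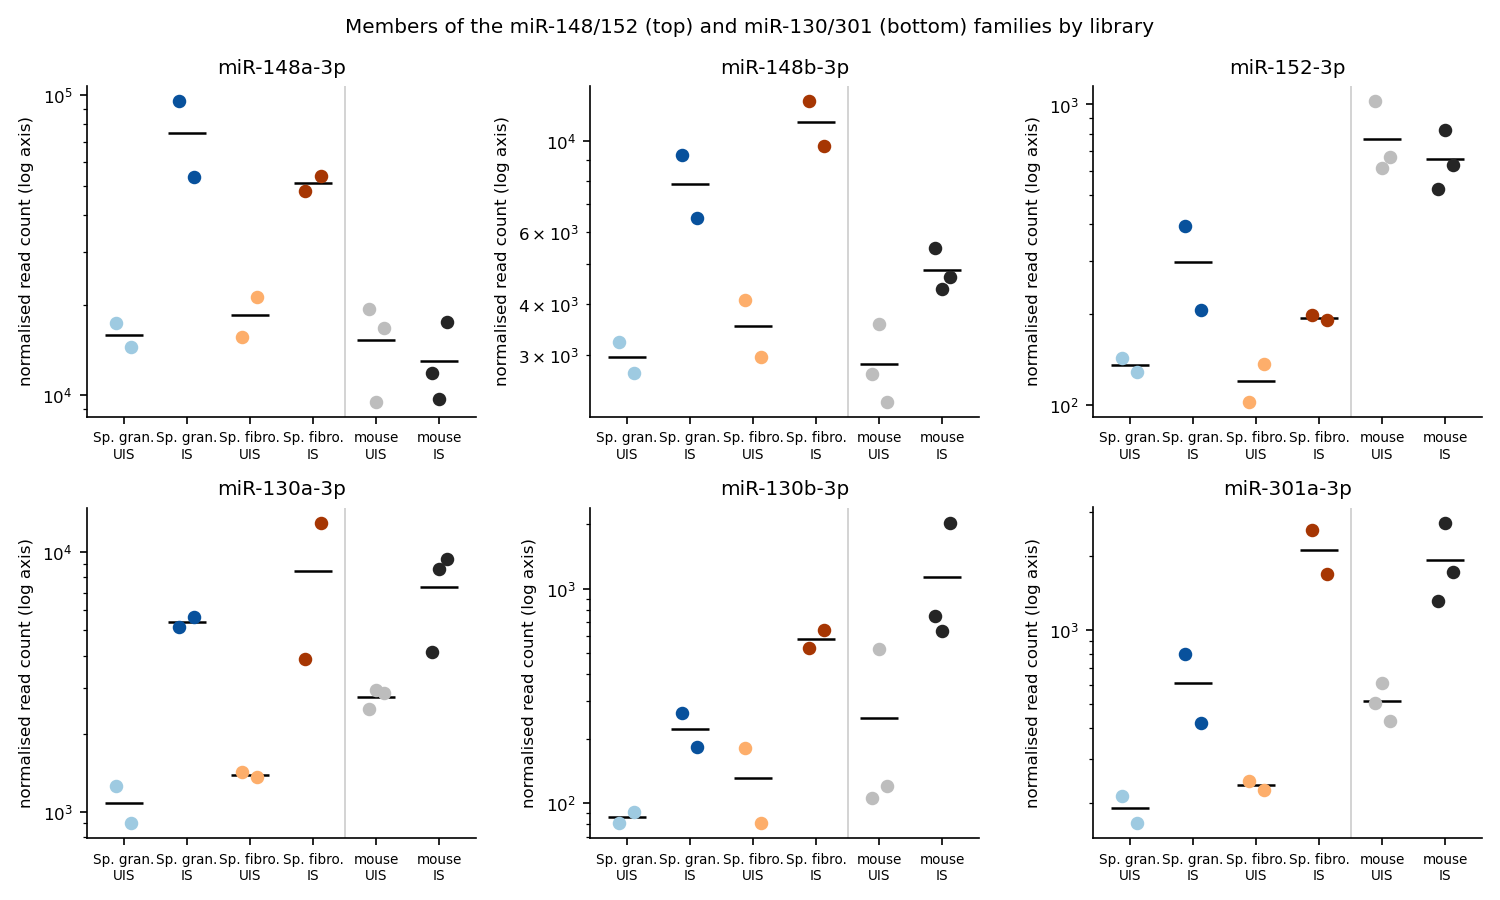
Normalised read count of each member in each library, on a log axis, with a point for each library and a line at the group mean; Sp. gran. and Sp. fibro. are *Spalax* granuloma and fibrosarcoma, and the mouse values, right of the grey line, come from a table scaled separately. In *Spalax* the IS points lie above the UIS points of the same condition for all 6 members, and in mouse for 4 of 6.

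In *Spalax* fibrosarcoma, all 3 members of the miR-130/miR-301 family rose, and so did miR-148a-3p and miR-148b-3p. These were 5 of the 6 members, while 37.4% of the 447 microRNAs tested passed in either direction and 15.2% passed as higher at the IS. The median log2 change was 1.96 over the members and -0.23 over all microRNAs tested. As in granuloma, both IS libraries were above both UIS libraries for each of the 6 members, which held for 32.2% of all microRNAs tested here and for 41.4% in granuloma.

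miR-301a-3p had the largest change of the members, from 226 and 246 at the UIS of spalax_2240 and spalax_2230 to 1682 and 2549 at the IS. The log2 change was 3.13 ± 0.48 (SE, n = 2 against 2; limma, adjusted p = 0.00263), or 8.75-fold. miR-130b-3p went from 80.8 and 181 to 642 and 528 (log2 change 2.26 ± 0.52, limma adjusted p = 0.0125). miR-130a-3p went from 1355 and 1418 to 13036 and 3872 (log2 change 2.36 ± 0.57, limma adjusted p = 0.0153). The 2 fibrosarcomas differed for miR-130a-3p: the rise within the animal was 9.62-fold in spalax_2240 and 2.73-fold in spalax_2230, whereas miR-301a-3p rose 7.44-fold and 10.4-fold.

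miR-148a-3p went from 21305 and 15665 at the fibrosarcoma UIS to 53979 and 47951 at the IS, a log2 change of 1.48 ± 0.37 (limma, adjusted p = 0.0172), and miR-148b-3p from 2970 and 4085 to 9705 and 12519 (log2 change 1.66 ± 0.37, limma adjusted p = 0.0113). Within the animals miR-148a-3p rose 2.53-fold and 3.06-fold, and miR-148b-3p 3.27-fold and 3.06-fold. miR-152-3p went from 137 and 102 to 191 and 199, a log2 change of 0.72 with an interval of -0.39 to 1.82 (limma, adjusted p = 0.275), and so did not pass in limma in either *Spalax* lesion.

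Muscle microRNAs made up 35.2% to 36.5% of the fibrosarcoma UIS libraries and 0.0112% to 0.0132% of the IS libraries, fibroblast-associated microRNAs 1.16% to 1.87% and 5.35% to 10.1%, and white cell microRNAs 0.0307% to 0.0457% and 0.772% to 2.25%. Of the 5 calls, 3 were left without the UIS library of spalax_2230 and 1, miR-301a-3p, without that of spalax_2240. With the animal as a block, limma called 5 members and edgeR 3, the calls of miR-148a-3p (adjusted p = 0.0849) and miR-148b-3p (adjusted p = 0.0641) being lost. The call of miR-148a-3p was also lost in edgeR with TMM factors (log2 change 1.22, adjusted p = 0.0551).

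**Figure D2:**
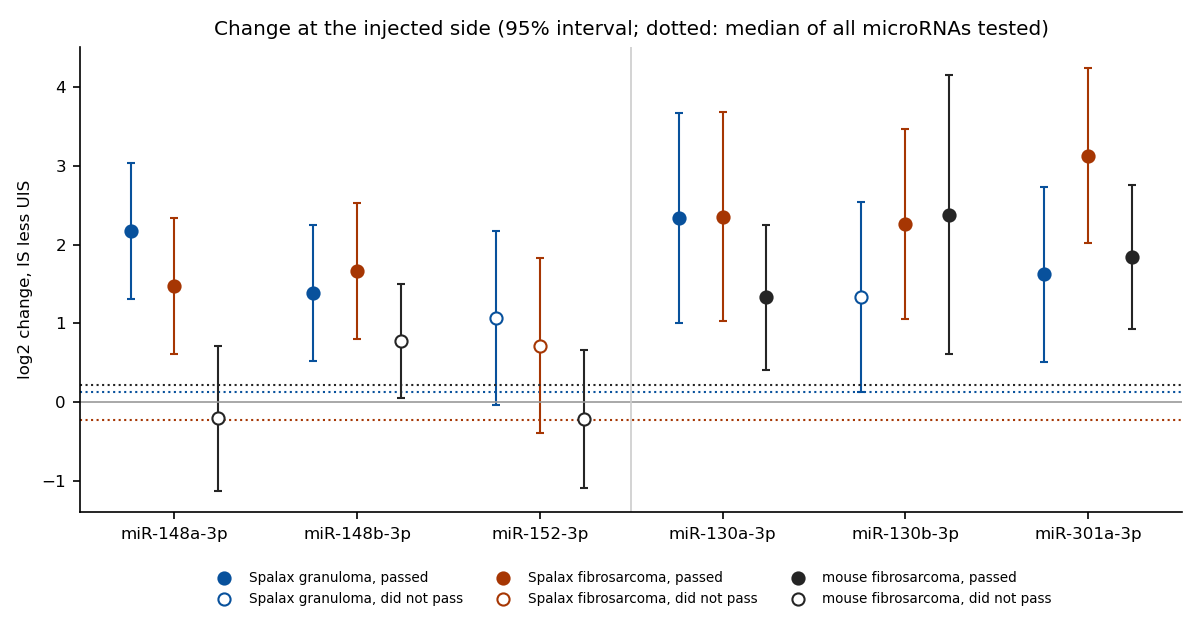
Log2 change at the IS (IS less UIS, on log2(value + 1)) of each member in each condition, with the 95% interval from limma; filled points passed an adjusted p under 0.05, open points did not, and dotted lines mark the median of all microRNAs tested. All changes of miR-130a-3p, miR-130b-3p and miR-301a-3p are above 1, while miR-148a-3p and miR-152-3p are at -0.21 in mouse.

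Whether the granuloma and fibrosarcoma changes differed was tested as the difference of the 2 changes. None of the 6 members passed in limma, and none had an unadjusted p under 0.05. edgeR and DESeq2 also called 0 members, while limma called 3.8% of all microRNAs tested. The largest difference was that of miR-301a-3p, with a change lower in granuloma by -1.51 on the log2 scale (95% interval -3.08 to 0.06, limma adjusted p = 0.258). Leaving out a library moved it between -1.98 and -1.04. The intervals are wide, so the test does not show that the families moved alike in both lesions.

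Between the lesions themselves, 1 of the 6 members passed: miR-301a-3p was at 804 and 419 in the granulomas and at 1682 and 2549 in the fibrosarcomas. It was lower in granuloma by -1.83 ± 0.48 on the log2 scale (SE, n = 2 against 2; limma, adjusted p = 0.0356), in a comparison in which 18.8% of all microRNAs tested passed. miR-130b-3p was at 263 and 182 in the granulomas and at 642 and 528 in the fibrosarcomas (log2 difference -1.41, limma adjusted p = 0.113). Neither miR-148b-3p, lower in granuloma (log2 difference -0.51, limma adjusted p = 0.411), nor miR-152-3p, higher there (0.54, limma adjusted p = 0.498), passed. The call of miR-301a-3p was lost in edgeR with TMM factors (adjusted p = 0.0536), in a fit of these libraries alone (adjusted p = 0.176), without the IS library of spalax_2230 (log2 difference -1.53, adjusted p = 0.0983) and without that of spalax_976 (log2 difference -1.36, adjusted p = 0.159). At the UIS, the comparison of granuloma-bearing with fibrosarcoma-bearing *Spalax* gave no call: limma passed 0 of 6 members (0 at an unadjusted p under 0.05) and 0% of all microRNAs tested, and edgeR and DESeq2 called 0 members.

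In mouse fibrosarcoma, the 3 members of the miR-130/miR-301 family rose and no change of the miR-148/miR-152 family passed in limma. DESeq2 also called miR-148b-3p, in a test that called 358 of all 547 microRNAs. The 3 called members, all higher at the IS, were miR-130a-3p, miR-130b-3p and miR-301a-3p. Of the 547 microRNAs tested in mouse, 57.8% passed in either direction and 32.2% passed as higher at the IS, so a call was common. The median log2 change was 1.05 over the 6 members and 0.21 over all microRNAs tested. All IS libraries were above all UIS libraries for 4 of the 6 members, as for 36.6% of all microRNAs tested.

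miR-301a-3p was at 430, 505 and 611 in the mouse UIS libraries and at 1310, 1718 and 2725 in the IS libraries. The log2 change was 1.84 ± 0.39 (SE, n = 3 against 3; limma, adjusted p = 0.00736), or 3.58-fold. miR-130a-3p was at 2478, 2865.5 and 2956 and at 4139, 8603 and 9389 (log2 change 1.33 ± 0.39, limma adjusted p = 0.0245). The 3 UIS values of miR-130a-3p lay close together and the IS values did not. miR-130b-3p was at 106, 121 and 523 at the UIS and at 633, 746 and 2036 at the IS (log2 change 2.38 ± 0.75, limma adjusted p = 0.0315). The highest value of miR-130b-3p on each side came from mouse_512, and within that animal it rose 3.89-fold, against 5.99-fold in mouse_1023.

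miR-148a-3p was at 9508, 16789 and 19425 in the mouse UIS libraries and at 9693, 11874 and 17543 in the IS libraries, with a log2 change of -0.21 and a 95% interval of -1.13 to 0.72 (limma, adjusted p = 0.656). The groups overlapped, and the paired animals went opposite ways: 0.499-fold in mouse_1023 and 1.85-fold in mouse_512. The rise in mouse_512 rests on the lowest mouse UIS value, 9508. That UIS library also differed most from the other mouse UIS libraries (chi-square per degree of freedom 3176 and 3315, against 327 between those others). miR-152-3p was at 613, 668 and 1027 at the UIS and at 521, 628 and 825 at the IS (log2 change -0.21, interval -1.09 to 0.67, limma adjusted p = 0.630). miR-148b-3p was at 2308, 2697 and 3576 and at 4346, 4657 and 5483, which did not overlap (log2 change 0.77, interval 0.05 to 1.496, limma adjusted p = 0.0651, DESeq2 adjusted p = 0.0348). Scaling to library totals turns the direction of miR-148a-3p (2.17, adjusted p = 0.00742) and miR-152-3p (2.14, adjusted p = 0.00390), with the median of all microRNAs tested moving from 0.21 to 2.24.

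Muscle microRNAs made up 27.7% to 29.8% of the mouse UIS libraries and 0.0100% to 3.94% of the IS libraries, fibroblast-associated microRNAs 0.426% to 1.17% and 7.43% to 15.4%, and red cell microRNAs 14.3% to 35.5% and 1.08% to 6.41%. Of the 3 calls, 1, miR-301a-3p, was left without the UIS library of mouse_1023 and likewise without the unpaired UIS library. With the animal as a block, which uses mouse_1023 and mouse_512 for the change, limma called 3 members and edgeR 2, the call of miR-301a-3p being lost (adjusted p = 0.0518). In edgeR with DESeq2 size factors that of miR-130b-3p was lost (adjusted p = 0.0501).

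Scaled values of 5 mouse libraries on the *Spalax* scale were deposited too, which allowed the changes of both species to be set against each other. The unpaired mouse UIS library was not among them. The mouse change here thus rests on 2 UIS libraries and need not equal that given above. For miR-148a-3p the change in *Spalax* exceeded that in mouse by 1.46 ± 0.60 on the log2 scale in fibrosarcoma (limma, adjusted p = 0.129, unadjusted p = 0.0342) and by 2.15 ± 0.60 in granuloma against mouse fibrosarcoma (limma, adjusted p = 0.116, unadjusted p = 0.00459). Neither passed the threshold. Under other processing or with a library left out, the difference lay between 0.71 and 1.92 in fibrosarcoma. For granuloma it lay between 1.57 and 2.62. Of the 6 members, 0 passed in either contrast in limma or in edgeR, with 1 at an unadjusted p under 0.05 in each, while 19.3% and 0.495% of the 404 microRNAs tested passed. A difference between the species for the miR-148/miR-152 family is therefore not shown by these tests.

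On this joint scale, miR-148a-3p was at 14429 to 21305 in the 4 *Spalax* UIS libraries and at 7718 and 14655 in the 2 mouse UIS libraries, and at 47951 to 95659 in the 4 *Spalax* IS libraries and 8061 to 15623 in the 3 mouse IS libraries. miR-152-3p was at 102 to 143 in *Spalax* UIS and 498 and 775 in mouse UIS. At the IS it was at 191 to 393 in *Spalax* and 438 to 686 in mouse. The other members are not described on this scale. No test was made of these levels, and how common such differences are among all microRNAs was not counted. Species also goes with dose and time after injection in these animals, and their parts cannot be told apart. Reads of both species were assigned to mouse names, and the effect of *Spalax* sequence differences on the counts was not tested.

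Within a library, the shares of the members in their family's reads do not depend on the scaling between libraries. miR-148a-3p made up 78.9% to 90.9% of the miR-148/miR-152 reads in the 8 *Spalax* libraries and 65.2% to 84.9% in the 6 mouse libraries. miR-148b-3p made up 8.77% to 20.6% and 11.7% to 30.7%. miR-152-3p made up 0.299% to 0.743% in *Spalax* and 2.75% to 5.55% in mouse, so every mouse library was above every *Spalax* library on both sides. The order miR-148a-3p, miR-148b-3p, miR-152-3p was the same in all 14 libraries. Mature microRNAs are of nearly the same length, but differences in ligation between sequences were not corrected for.

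In the miR-130/miR-301 family, miR-130a-3p was the most abundant member in every library, with 55.7% to 90.4% of the family's reads in *Spalax* and 66.8% to 83.9% in mouse. miR-301a-3p made up 6.72% to 36.7% in *Spalax* and 12.6% to 22.8% in mouse, and miR-130b-3p 2.92% to 9.79% and 3.42% to 15.5%. The fibrosarcoma of spalax_2230 stood apart: miR-301a-3p made up 36.7% of the family's reads (95% Wilson interval 35.8% to 37.5%) and miR-130a-3p 55.7%, while in the fibrosarcoma of spalax_2240 they made up 10.9% (10.2% to 11.7%) and 84.9%. The UIS libraries of the 4 *Spalax* were close together, with miR-301a-3p at 13.3% to 14.3%. The intervals cover counting error only.

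**Figure D3:**
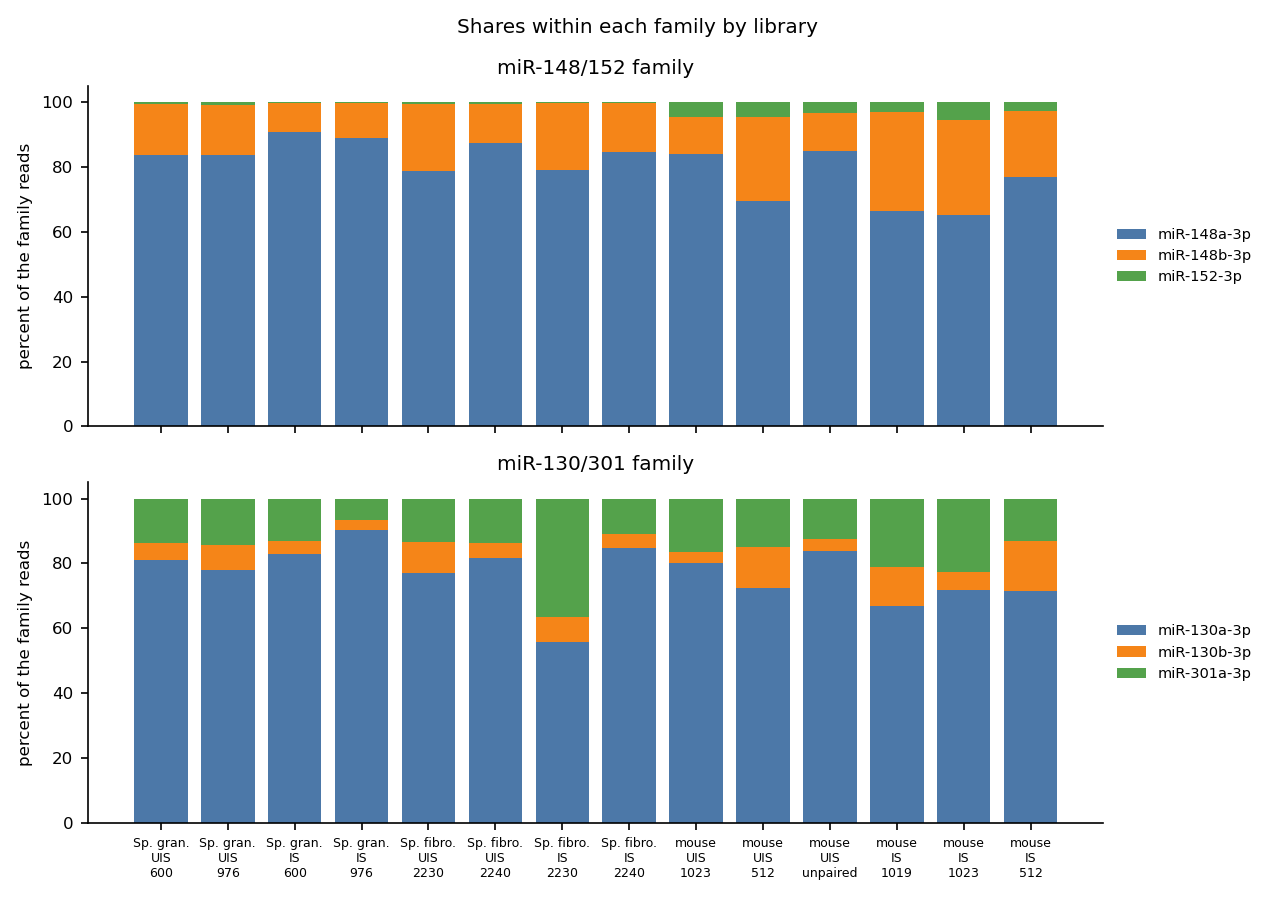
Share of each member in the reads of its family, in percent, for each library, with the animal number under the bar. miR-148a-3p and miR-130a-3p hold most reads of their families in all 14 libraries, and the miR-152-3p band is wider in every mouse library than in any *Spalax* library.

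The shares were compared between the sides within 6 animals, 4 *Spalax* and 2 mice, by an exact sign-flip permutation test, two-sided, in a family of 7 relations. No member's share passed: the unadjusted p-values lay between 0.5 and 1, where 6 pairs allow a smallest p of 0.0312. Adjusted over 7 relations that p alone gives 0.219, so no single relation could have passed and the test says nothing on whether the shares differ. The mean difference (IS less UIS) was largest for miR-301a-3p, at 2.80 ± 11.0 percentage points (SD, n = 6), and the share rose in 2 of 6 animals. The pair of spalax_2230 gave its highest value, 23.4 percentage points, and without it the mean was -1.31. The share of miR-152-3p was at 0.515% to 0.743% in the *Spalax* UIS libraries and 0.299% to 0.373% in the IS libraries, lower at the IS in all 4 *Spalax* and without overlap. The paired mice went opposite ways, by 1.11 percentage points in mouse_1023 and -1.73 in mouse_512, the highest and the lowest difference. The mean over 6 animals was -0.30 ± 0.90 (SD; exact sign-flip permutation test, p = 0.5).

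The log2 ratio of miR-148/miR-152 reads to miR-130/miR-301 reads was 3.43 to 3.90 in the 4 *Spalax* UIS libraries, where the first family had the more reads. It was 3.27 and 4.08 in the granulomas and 2.06 and 3.13 in the *Spalax* fibrosarcomas. In mouse it was 1.74 to 2.91 at the UIS and 0.31 to 1.53 at the IS, which did not overlap. The ratio was lower at the IS in 5 of 6 animals, spalax_600 being the exception, by -0.99 ± 1.06 on the log2 scale (SD, n = 6; exact sign-flip permutation test, two-sided, p = 0.0938, adjusted p = 0.656), which no single relation could pass.

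**Figure D4:**
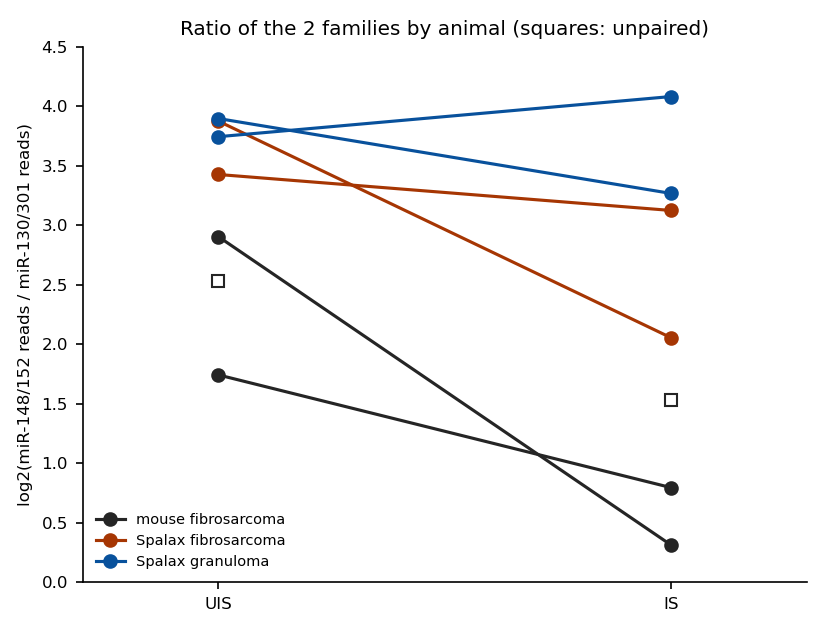
Log2 ratio of the summed reads of the miR-148/miR-152 family to those of the miR-130/miR-301 family at the UIS and IS, with a line for each animal and open squares for the unpaired mouse libraries. The line falls in 5 of 6 animals and rises in 1 granuloma-bearing *Spalax*, and the mouse points at the IS lie below all other points.

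Of the 8 other rows of these hairpins, the 5p arms of the members and both arms of miR-301b, 6 were abundant enough to be tested in each species. In granuloma 4 rose (miR-148a-5p, miR-152-5p, miR-130a-5p and miR-301b-3p), in *Spalax* fibrosarcoma 4 (miR-148a-5p, miR-148b-5p, miR-130a-5p and miR-301b-3p) and in mouse 3 (miR-130b-5p, miR-301a-5p and miR-301b-3p), and none fell. These counts stand beside 25.5%, 15.2% and 32.2% of all microRNAs called higher. The value of 10 needed for testing was reached only at the IS by miR-130a-5p and miR-301b-3p in *Spalax* and by miR-301a-5p in mouse. In mouse miR-301b-3p also met the rule through its IS libraries. Their entry into the test thus depended on being high at the IS, and their calls are no evidence of a rise. miR-148a-5p, from the same hairpin as miR-148a-3p, went from 136 and 78.8 to 733 and 369 in spalax_600 and spalax_976 (log2 change 2.32 ± 0.56, limma adjusted p = 0.0130). In mouse, miR-148a-5p had a log2 change of -0.12 (limma, adjusted p = 0.877). In *Spalax* fibrosarcoma it was called (log2 change 1.86, limma adjusted p = 0.0355). The difference of its changes between the species did not pass, at 2.17 for granuloma (limma, adjusted p = 0.277) and 1.71 for *Spalax* fibrosarcoma (limma, adjusted p = 0.253).

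miR-301b-3p, whose hairpin neighbours that of miR-130b, was called in all 3 conditions but rested on few reads at the UIS, 2 in each granuloma UIS library, 3 and 4 in those of *Spalax* fibrosarcoma and 3 to 7 in mouse. At the IS it had 18 and 21 reads in granuloma, 24 and 162 in *Spalax* fibrosarcoma and 71 to 122 in mouse. The calls of miR-130a-5p rested on 1 and 3 UIS reads in granuloma (22 and 8 at the IS) and 2 and 2 in *Spalax* fibrosarcoma (29 and 21 at the IS), and that of miR-301a-5p in mouse on 2 to 5 (18 to 37 at the IS). No fold is given for these 3, since the UIS counts are at or near the floor of 3 reads.

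The microRNAs whose profiles were nearest to each member were taken from 392 candidates tested in both species, by the root mean square difference of log2(value + 1), centred within each table, over 14 libraries. miR-27a-5p (0.37) and miR-574-5p (0.50) were nearest to miR-148a-3p, and miR-99b-5p (0.29) and miR-324-3p (0.30) to miR-148b-3p. For miR-152-3p they were let-7a-1-3p and let-7c-2-3p (both 0.40). Their read counts were equal in all 14 libraries, so both names give the same profile, and the next nearest profile was not listed. miR-15b-5p (0.51) and miR-103-2-5p (0.52) were nearest to miR-130a-3p, miR-15b-3p (0.49) and miR-18a-3p (0.59) to miR-130b-3p, and miR-33-5p (0.54) and miR-15b-3p (0.54) to miR-301a-3p. Among the members, miR-148a-3p and miR-152-3p were nearest to each other (0.47), and miR-130b-3p and miR-152-3p were farthest apart (1.32). The distances span IS and UIS libraries, so any change between the sides enters each of them. In mouse no such change passed in limma for miR-148a-3p or miR-152-3p (log2 change -0.21 for each).

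The scaling between libraries set the level of every change. With reads scaled to library totals, the median log2 change of all microRNAs tested was 1.71 for granuloma (0.13 with the deposited size factors), 1.14 for *Spalax* fibrosarcoma (-0.23 before) and 2.24 for mouse (0.21 before). The median over the 6 members was then 3.29, 3.57 and 3.42 in the same order. Under that scaling all 6 members were called higher in each condition. So were 247 of the 447 microRNAs tested in granuloma, 195 of 447 in *Spalax* fibrosarcoma and 376 of 547 in mouse. As a share of all microRNA reads, the miR-148/miR-152 family took 0.118% ± 0.0120 (SD, n = 2) at the granuloma UIS and 1.85% ± 0.719 (SD, n = 2) at the IS, and the miR-130/miR-301 family 0.00841% ± 0.00147 and 0.139% ± 0.000156. In the *Spalax* fibrosarcomas the shares went from 0.157% ± 0.0239 to 1.42% ± 0.0372 and from 0.0124% ± 0.000835 to 0.254% ± 0.133 (SD, n = 2). In mouse they went from 0.101% ± 0.0435 to 0.491% ± 0.117 and from 0.0180% ± 0.00356 to 0.271% ± 0.0841 (SD, n = 3).

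**Figure D5:**
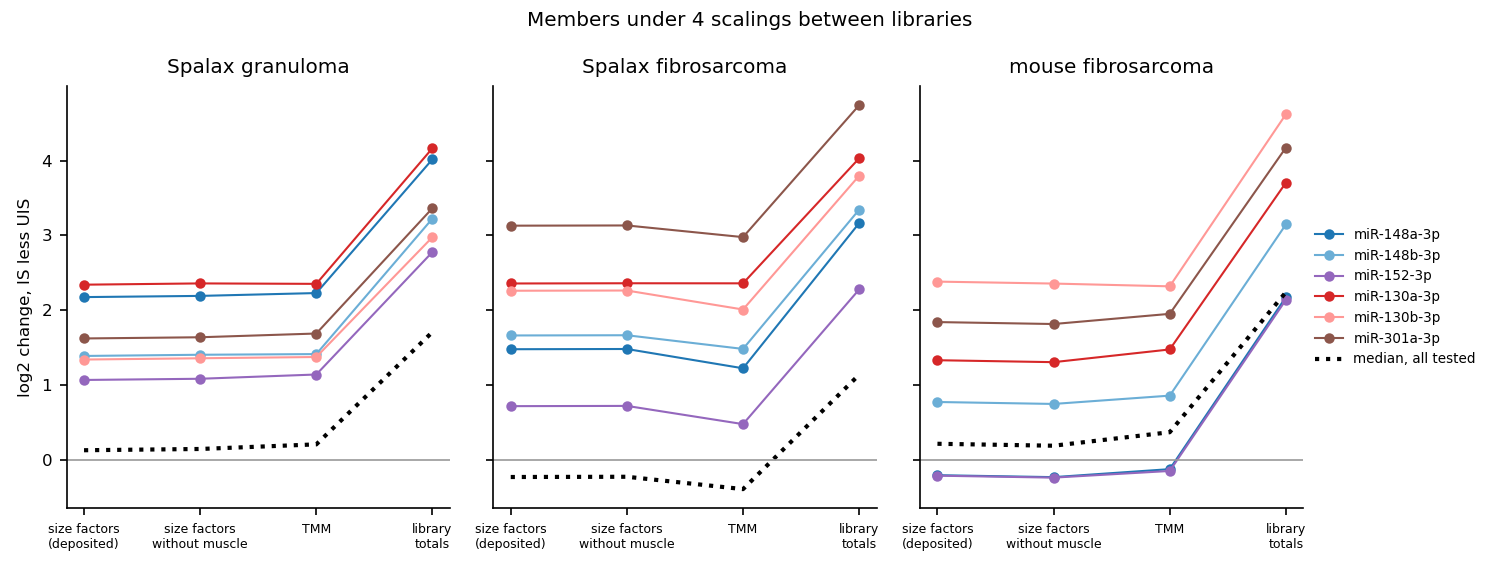
Log2 change at the IS of each member under 4 scalings between libraries (deposited size factors, size factors without muscle microRNAs, edgeR's TMM, library totals), with the median of all microRNAs tested as a dotted line. The members move together with the dotted line, and miR-148a-3p and miR-152-3p in mouse cross 0 under library totals, where they lie just below that line.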

How the data were processed

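Small RNA libraries were made with the TruSeq Small RNA kit. The authors trimmed adaptors, mapped reads with mirDeep and deposited a table for each species. The submitters' notes also name TopHat 1.4.1, HTSeq, DESeq and GRCm38, with no role given. The deposited values are a signal, reads divided by a size factor of each library: 100% of 18564 values were whole multiples (tolerance 0.001) of the library's step, which gave the reads back. The deposited mouse libraries in both tables held the same reads.

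A microRNA was tested if 2 *Spalax* libraries, or 3 mouse libraries, reached a value of 10. limma 3.58.1 (R 4.3.3) was fitted on log2(value + 1) with one mean per group, to the 8 *Spalax* and the 6 mouse libraries separately. Changes on this scale understate those of rare microRNAs. P-values were adjusted by the Benjamini-Hochberg method over all microRNAs tested, with a threshold of 0.05. No 2 libraries of a group agreed within sampling noise (chi-square test of reads). A count test on the recovered reads served as an alternative (edgeR 4.0.16, which with TMM factors called 212, 163 and 311 microRNAs in granuloma, *Spalax* fibrosarcoma and mouse, and DESeq2 1.42.0). The species were compared in a fit of 13 libraries chosen after seeing the data. Sides with the same animal number come from the same animal. The correlation of paired libraries, as deviations from their group mean, was 0.0933 for the granuloma pairs, 0.00405 for the *Spalax* fibrosarcoma pairs, and 0.122 and -0.107 for mouse_512 and mouse_1023. With 2 animals in a *Spalax* condition both pairs must give the same value, so it cannot decide whether the pairing matters there. Members, marker lists and the rule for named microRNAs (members, other arms, nearest profiles) were chosen with earlier results of these data known. Only the limma test of IS against UIS was tried on simulated data first, for granuloma and for mouse.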

Additional observations from a re-analysis of the deposited data

How the results depend on the processing

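The alternatives were scaling to library totals, size factors without muscle microRNAs, edgeR with TMM or DESeq2 size factors, DESeq2, no filter, a pseudocount of 0.1, the animal as a replicate block in limma and edgeR, only the libraries compared, and each library left out in turn. The animal block cannot be fitted to the comparisons of IS with IS or UIS with UIS, which lie between animals. With a library left out, the lone library of its group is assumed to vary like the others.

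In both *Spalax* comparisons of IS with UIS, the sign of every member's change was the same under all these alternatives. The number of members called was 2 in granuloma and 3 in *Spalax* fibrosarcoma with edgeR and the animal as a replicate block, and 6 in mouse under scaling to library totals. DESeq2 called 6 members in granuloma (miR-152-3p and miR-130b-3p added), 5 in *Spalax* fibrosarcoma and 4 in mouse (miR-148b-3p added). Of all microRNAs tested it called 238, 203 and 358 in the same order. Leaving out a library gave 1 to 4 called members in granuloma, 1 to 5 in *Spalax* fibrosarcoma and 1 to 3 in mouse. Between the IS of granuloma and fibrosarcoma it gave 0 to 1, against 0 with edgeR and TMM factors, 0 with only the libraries compared and 2 with DESeq2. The mouse changes of miR-148a-3p and miR-152-3p turned positive under library totals (2.17 and 2.14) and without the UIS library of mouse_1023 (up to 0.00052 and 0.014, the lowest values with a library left out being -0.51 and -0.39), and that of miR-148a-3p also with edgeR and the animal block (0.040). The mean share difference of miR-130b-3p, -0.71 percentage points, became 0.61 with the unpaired mouse libraries paired. With each animal left out in turn, the mean difference lay between -1.79 and 3.44 for miR-148a-3p (-0.25 with all animals), -2.86 and 2.01 for miR-148b-3p (0.55), -5.02 and 1.72 for miR-130a-3p (-2.09), -1.39 and 0.15 for miR-130b-3p, and -1.31 and 4.87 for miR-301a-3p (2.80), so all 5 changed sign, while miR-152-3p (-0.58 to -0.010) and the log2 ratio of the families (-1.26 to -0.67) did not. The cause of these shifts was not tested. Library totals also moved the calls over all microRNAs: 247 higher and 48 lower in granuloma (114 and 102 before), 195 and 40 in *Spalax* fibrosarcoma (68 and 99), and 376 and 31 in mouse (176 and 140). With the deposited scaling and no block, the call of miR-301a-3p in mouse held with each library left out (highest adjusted p 0.0323), as did that of miR-148a-3p in granuloma (0.0325) and miR-301a-3p in *Spalax* fibrosarcoma (0.0268).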

Other observations

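The 2 arms of the miR-152 hairpin gave reads in similar number, and their balance differed between the sides. The ratio of miR-152-3p to miR-152-5p reads, which no scaling between libraries touches, was lower at the IS in 6 of 6 animals, at 0.653 to 1.495 at the IS and 1.12 to 2.96 at the UIS. In the granulomas it was 0.653 and 0.715, against 1.17 and 1.98 at the UIS, and in the *Spalax* fibrosarcomas 0.854 and 0.855, against 1.12 and 1.63. In mouse it was 1.23 to 1.495 at the IS and 2.10 to 2.96 at the UIS, counting the unpaired libraries. The same ratio was lower at the IS in 3 of 6 animals for miR-148a, 2 of 6 for miR-148b and 2 of 6 for miR-130b. miR-130a-5p and miR-301a-5p had over 3 reads on both sides in only 1 and 2 animals. This was noticed after the values were seen, and no test was made of it.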
